A study of Mus musculus with 2 samples.

Results

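The genes described here are those of the Rab family, small GTPases that sit on the membranes of the cell. They were chosen by name: every sequence on the array whose gene name in the files starts with Rab and a digit. This gave 112 sequences of 65 genes, among 24171 named genes and 44170 sequences in all. Of the 65 genes, 56 encode Rab GTPases. The other 9 carry a Rab number in their names but encode proteins that bind or regulate Rabs, and they are kept apart below as Rab-named regulators. The rule uses names alone and was set with earlier results of these data known.

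A Rab GTPase is inserted into a membrane by a lipid tail and switched on when an exchange factor loads it with GTP. In that state it recruits effectors such as tethers, motors and lipid kinases, and an activating protein switches it off by speeding up GTP hydrolysis. Different Rabs mark different stations, with Rab5 on early endosomes, Rab4 and Rab11 on recycling endosomes, Rab7 on late endosomes, Rab1 and Rab2 between endoplasmic reticulum (ER) and Golgi, and Rab3 and Rab27 on secretory granules. WASH is the endosomal activator of the Arp2/3 actin nucleator and acts in sorting cargo out of endosomes for recycling, which makes the endosomal Rabs its neighbours on the same membranes.

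The arrays compared LT-HSC (long-term haematopoietic stem cells), the marrow cells that maintain blood formation, sorted by flow cytometry from femurs of C57/BL6 mice. The control group was labelled wild type and the other group was labelled as a knockout of WASH, with 1 array each. The labels name no allele, no Cre driver, no age and no number of mice behind an array. Whatever else differed between the sorts therefore cannot be told apart from the genotype, and no p-value or error could be computed. Values are RMA intensities (background-corrected and normalized array brightness, linear scale), and differences are log2 values of knockout minus control, so that -1 is 2-fold lower in the knockout. A gene with several sequences on the array is represented by its brightest one. Brightness also depends on the probes, so its rank was used only to choose which genes to name and is not read as a difference in expression between genes.

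Both arrays had similar overall distributions, with median intensities of 137 each over all sequences, and the background, read from probes of random sequence, was 71.3 for control and 75.7 for knockout. The targeted gene, Washc1, read 119 in control and 107 in knockout cells, at 1.67 and 1.42 times that level, and where its probes lie relative to the deletion was not analysed here, so it does not check the labels. Of 20 genes listed as stem cell markers, 19 were measured, and 8 had a mean log2 value above the median of all genes. Kit (398 and 489), Ly6a (835 and 596) and Cd34 (746 and 1105) were well above background. Slamf1, Hlf, Hoxb5, Meis1, Ctnnal1 and Prdm16 were not among the 8. Fgd5, Procr, Tcf15 and Tek lay at or below the random-probe level on both arrays. These values do not check that the cells were LT-HSC. Of the 19, 11 were above 0, 1 was higher and 1 lower by 2-fold or more, and the median was 0.22. The lower one was Mecom, at 350.1 in control and 163 in knockout cells (-1.10), but its 6 sequences ranged from -1.65 to 0.49. The higher one was Prdm16, at 82.8 and 194 (1.23), with its 2 sequences from 0.10 to 1.23. Within 2-fold, Gata2 was at 584 and 324 (-0.85), with its 2 sequences from -0.85 to 0.19. Meis1 was at 93.6 and 182 (0.96), with its 3 sequences from 0.42 to 1.13. Markers of some other blood cells differed between the arrays. Of 20 erythroid markers, 13 were 2-fold or more higher in the knockout (65%, beside 5.94% of all genes) and 0 were 2-fold lower (beside 6.42%). Their summed intensities were 19653 in control and 93874 in knockout cells. Of 23 granulocyte and monocyte markers, 16 were lower and 7 higher. By 2-fold or more, 6 were lower (26.1%, beside 6.42% of all genes) and 1 was higher (4.35%, beside 5.94%). Their summed intensities were 153692 in control and 63131 in knockout cells. Of these 23, only Cd14 was at or below the random-probe level on both arrays. By 2-fold or more, 0 of 8 B lymphoid markers differed (median 0.14). In the same way 1 of 9 T and NK markers was higher and 0 lower (median 0.07). Among 8 macrophage markers 2 were higher and 0 lower (median 0.17). Among 6 megakaryocyte and platelet markers 2 were lower and 0 higher (median -0.46). In such bulk RNA, fewer cells of a type and less RNA per cell cannot be told apart. No Rab gene is in these marker lists, and the part of such cells in the Rab values below was not tested.

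Among the 65 Rab-named genes, 11 were 2-fold or more lower in the knockout and another 3 were 2-fold or more higher. The 11 lower genes were Rab24, Rab5a, Rab1a, Rab37, Rab22a, Rab1b, Rab9, Rab14, Rab3c, Rab3d and Rab39b, and the 3 higher genes were Rab25, Rab42 and Rab20. All 14 encode GTPases, spread over every part of the endosomal and secretory route. The lower genes made up 16.9% of the members, beside 6.42% of all 24171 genes. The higher genes made up 4.62%, beside 5.94% of all genes. In either direction the share was 21.5%, beside 12.4% of all genes. The median difference of the 65 members was -0.06, beside 0.02 for all genes, and that of the 56 GTPases was -0.18. Of the 56 GTPases 35 were below 0 (62.5%, beside 48.3% of all genes) and 21 above. That share of all genes is the background for the counts of signs further on. The count of lower members depends on how a gene's value is formed: it was 4 with the mean of each gene's sequences, and 4 lower beside 1 higher with an offset of 50 added before the log. The shares of all genes in these settings were not computed.

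**Figure D1:**
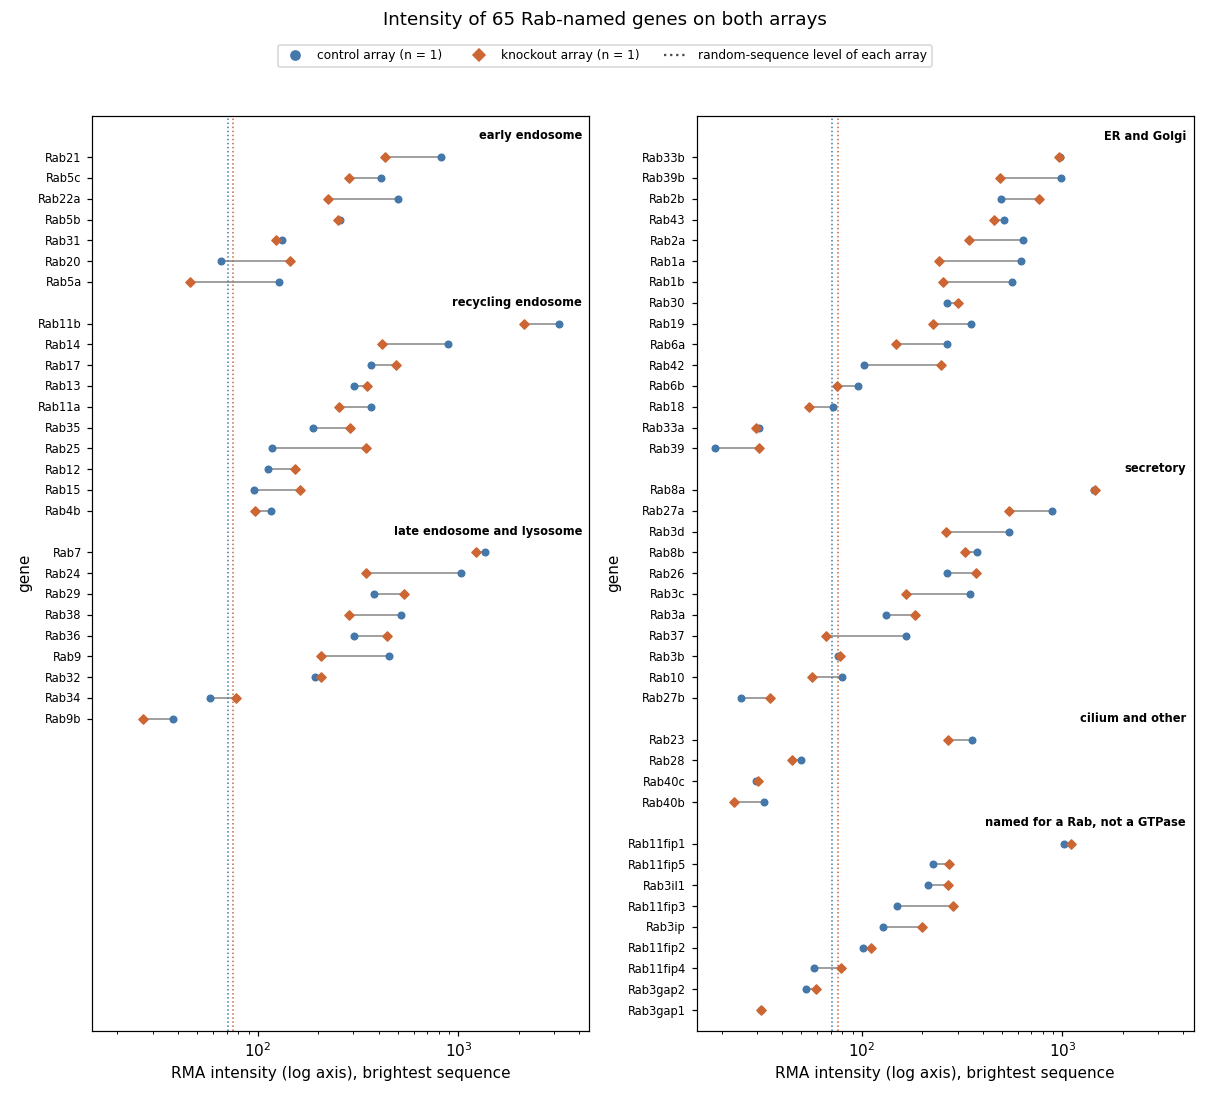
Intensity of each of the 65 Rab-named genes on the control array (circles) and the knockout array (diamonds), by role, on a log axis, with 1 array per genotype and no error bars. Rab24 (1037 and 347) and Rab1a (621 and 243) show long shifts to lower values in the knockout, Rab25 (118 and 347) a shift to higher values, and genes left of the dotted lines are at the level of random sequences.

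Brightness limits what can be read for part of the family. A gene was said to be in the detected range when the mean of its log2 values lay above the median of all genes, which corresponds to an intensity of 193, and 39 of the 65 members were in it. Within that range 9 members were 2-fold or more lower, beside 5.70% of the 12085 genes in the range, and 1 was 2-fold or more higher, beside 4.68%. In either direction this was 25.6% of the members in the range, beside 10.4%. The 35 GTPases in the range had a median of -0.53, beside 0.02 for all genes in it. Of these 35, 24 were below 0 (68.6%), beside 48.3% of all genes in the range. Rab5a, Rab37, Rab20 and Rab42 are the members with a 2-fold difference that fell outside it. A further 9 members were not above the random-probe level on either array, so no difference could be seen in them. They were the GTPase genes Rab9b, Rab27b, Rab28, Rab33a, Rab39, Rab40b and Rab40c and the regulator genes Rab3gap1 and Rab3gap2.

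The early endosome GTPases were mostly lower in the knockout. Rab5a, Rab5b and Rab5c drive the fusion of incoming vesicles with early endosomes. Rab5c read 411 in control and 284 in knockout cells (-0.53), and its other sequence differed by -0.67. Rab5b read 258 and 250 (-0.04). Rab5a read 128 and 46.1 (-1.47), but the knockout value lay below the random-probe level, which makes this sequence at least 1.69-fold lower. The other sequences of Rab5a read 28.7 and 28.9 (0.01) and 57.7 and 79.9 (0.47), at or near the random-probe level, and give no check of it.

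Rab21, which acts in the uptake of integrins, was at 824 in control and 432 in knockout cells (-0.93) with 1 sequence. Rab22a, which sorts cargo from early endosomes towards recycling, was at 500 and 225 (-1.15; chromosome 2, 173485358 to 173527684, MM9). Its 4 sequences ranged from -1.15 to 1.22. The next brightest was at 126 on both arrays (-0.00). The control values of the 2 higher ones, 49.2 and 44.8, lay below the random-probe level. In the knockout the first of them read 114, above that level, so its direction was opposite to that of the brightest. The second read 63.5, below it. Rab31, its close relative, was at 132 and 123 (-0.10). Rab20, known from the maturation of phagosomes, was not above the random-probe level in the control and read 145 in the knockout, at least 2.03-fold higher. The 7 genes had a median of -0.53, with 6 below 0 (85.7%, beside 48.3% of all genes). But this median was -0.19 with the mean of each gene's sequences, -0.10 with the authors' shorter series table and 0.01 with the dimmest sequence.

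The recycling GTPases were on both sides of 0. Their median was 0.31, with 6 of 10 genes above 0, and it was between 0.25 and 0.47 in every other way of computing the values that was tried. Rab11a and Rab11b, the GTPases of the slow recycling route through the perinuclear recycling endosome, were both lower. Rab11b read 3169 in control and 2131 in knockout cells (-0.57), while its other sequence differed by -0.05. Rab11a read 368 and 253 (-0.54) with 1 sequence. Rab25, the third member of the Rab11 group and best known from epithelia, was the highest difference of the whole family, at 118 in control and 347 in knockout cells (1.55; chromosome 3, 88345957 to 88352186, MM9). Its control value was 1.66 times the random-probe level, and it has 1 sequence.

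Rab14, which works between the Golgi and endosomes, was at 884 in control and 416 in knockout cells (-1.09; chromosome 2, 35035724 to 35056640). Its other sequences read 368 and 318 (-0.21) and 313 and 511 (0.71). The last of these was well above the random-probe level on both arrays and had the opposite direction. Rab17, a recycling GTPase of polarized cells, was at 366 and 486 (0.41), and its other sequence was 1.23 higher. Rab35, which returns cargo to the plasma membrane, was at 189 and 288 (0.60). Rab13 (0.21), Rab12 (0.45) and Rab15 (0.76) were above 0, and Rab4b, of the fast recycling route, was at -0.26 with its brightest and -1.20 with its other sequence.

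**Figure D2:**
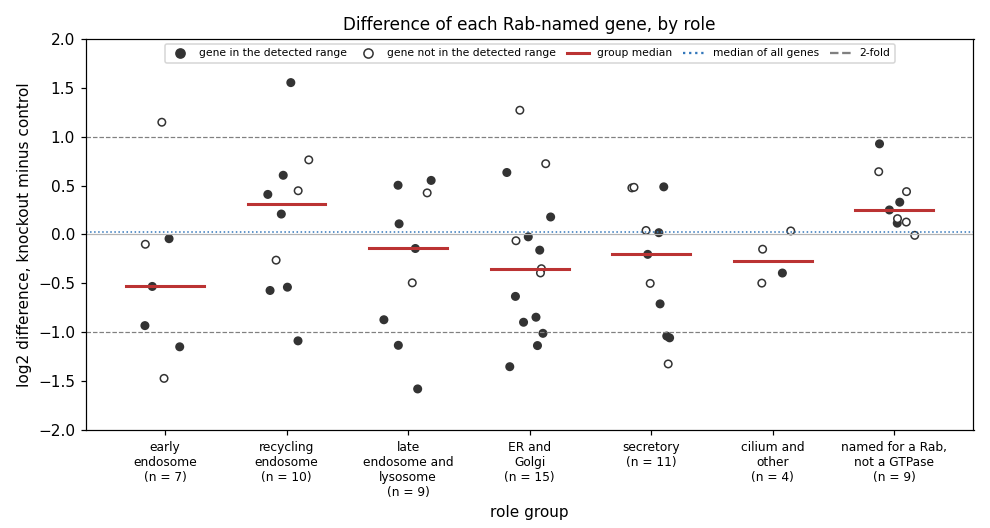
Log2 difference of each Rab-named gene by role group, with filled points for genes in the detected range, red bars for group medians, a dotted line for the median of all genes (0.02) and dashed lines at 2-fold. The early endosome group is centred at -0.53 and the recycling group at 0.31, and in each group of GTPases except the cilium group at least 1 gene lies beyond 2-fold.

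Late endosome GTPases held the lowest difference of the family. Rab24, an unusual Rab linked to autophagy, was at 1037 in control and 347 in knockout cells (-1.58; chromosome 13, 55421245 to 55423247, MM9), and its other sequence differed by -2.01. It was the one member with several sequences of which every sequence was 2-fold or more lower. Rab7, the main GTPase of late endosomes and lysosomes, was at 1353 and 1225 (-0.14). Its 6 sequences ranged from -0.64 to 0.12, 5 of them below 0 and all within 2-fold. Rab9, which returns mannose-6-phosphate receptors from late endosomes to the Golgi, was at 452 and 206 (-1.13; chromosome X, 162895194 to 162917586) with 1 sequence. With the brightest sequence of each, Rab7 was within 2-fold and Rab9 past it.

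Rab38 and Rab32 serve lysosome-related organelles such as melanosomes. Rab38 was at 520.3 and 284 (-0.87) and Rab32 at 192 and 207 (0.11). Rab29, listed in the files as Rab7l1 and known as a partner of the kinase Lrrk2, was at 380.3 and 539 (0.50), and both of its sequences were higher. Rab36, which binds the late endosome adaptor Rilp, was at 301 and 441 (0.55), but its other sequences differed by -0.24 and -0.79. Rab34 (0.42) had a control value below the random-probe level. The median of the 9 genes was -0.14, with 5 below 0, and it lay between -0.49 and -0.02 in the other ways of computing the values.

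Rab24 and Rab25 are the ends of the range, so the promoters of both are shown, as RefSeq gives them on build GRCm38.p6 from 250 bases before to 50 bases after the gene start. They were searched on both strands for 3 motifs. CACGTG is the E-box read by Myc and by the lysosomal TFE factors. AGATAA is a site of GATA factors. CCGGAAG is the core read by ETS factors. Matches are in capitals. The Rab24 window (chr13:55321931-55322230, minus strand) holds 2 ETS cores in reverse orientation, which start 44 and 14 bases before the gene start, and 1 E-box just after it. The Rab25 window (chr3:88548230-88548529, minus strand) holds none of the 3.
Rab24: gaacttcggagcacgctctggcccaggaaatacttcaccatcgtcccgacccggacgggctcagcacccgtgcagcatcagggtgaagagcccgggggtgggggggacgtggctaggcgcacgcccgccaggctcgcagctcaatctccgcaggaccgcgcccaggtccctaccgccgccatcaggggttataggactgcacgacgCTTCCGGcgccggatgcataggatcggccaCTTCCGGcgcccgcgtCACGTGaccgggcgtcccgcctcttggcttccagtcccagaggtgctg
Rab25: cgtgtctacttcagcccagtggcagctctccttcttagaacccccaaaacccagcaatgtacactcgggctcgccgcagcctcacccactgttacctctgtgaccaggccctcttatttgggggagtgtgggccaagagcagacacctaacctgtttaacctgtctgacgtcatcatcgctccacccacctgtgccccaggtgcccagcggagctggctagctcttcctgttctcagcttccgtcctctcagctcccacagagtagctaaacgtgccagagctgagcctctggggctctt

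Promoter windows were found for 55 of the 65 members. An E-box was present in a window of 8 of these 55 genes (14.5%), beside 8.09% of 27025 genes with a window. The ETS core was in 7 (12.7%, beside 9.93%) and the GATA motif in 2 (3.64%, beside 12.7%). Of the 10 lower members with a window, the E-box was in those of Rab24 and Rab5a, and the ETS core in those of Rab24 and Rab14. Among the higher members Rab20 had an E-box. These are matches of letters and no evidence of binding.

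The ER and Golgi GTPases were mostly lower, with 11 of 15 below 0 (73.3%, beside 48.3% of all genes). Their median was -0.35 (-0.39 to -0.22 in the other ways of computing the values). Rab1a and Rab1b, which start transport from the ER to the Golgi, were both past 2-fold. Rab1a read 621 in control and 243 in knockout cells (-1.35; chromosome 11, 20101449 to 20125466, MM9), and its other sequence, at 42.3 and 34.3, was below the random-probe level on both arrays. Rab1b read 560.5 and 255 (-1.14; chromosome 19, 5099204 to 5106991) with 1 sequence. Rab2a, which acts at the same stage, read 637 and 342 (-0.90), and its relative Rab2b was at 493 and 765 (0.63), but the other sequences of Rab2b differed by -0.03 and -0.59. Rab6a, of transport within the Golgi and back to the ER, read 265 and 147 (-0.85).

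Rab39b, best known from neurons, was at 981 in control and 487 in knockout cells (-1.01; chromosome X, 72817395 to 72823564), just past 2-fold, with Rab21 (-0.93) and Rab2a (-0.90) next on the other side of that size. Rab33b, a Golgi Rab that binds the autophagy protein Atg16l1, was at 973 and 956 (-0.02). Rab43 (-0.16), Rab30 (0.18) and Rab19 (-0.63) were within 2-fold. Rab42 was at 102 in control and 247 in knockout cells (1.27; chromosome 4, 131858111 to 131859300), with a control value of 1.44 times the random-probe level and 1 sequence. Rab6b and Rab18 had values at about the random-probe level.

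Among the secretory GTPases 3 were 2-fold or more lower (27.3%, beside 6.42% of all genes) and 0 higher by 2-fold or more (beside 5.94%). Their median was -0.20 over 11 genes (-0.50 to -0.14 in the other ways of computing the values). Rab3d, found on granules of secretory cells, was at 540 in control and 263 in knockout cells (-1.04; chromosome 9, 21712645 to 21722580), and its other sequence differed by -0.63. Rab3c was at 346 and 166 (-1.06; chromosome 13, 110850529 to 111071204), and its other sequence by only -0.14. Rab37, known from mast cell granules, was at 166 in the control and not above the random-probe level in the knockout, so that it was at least 2.19-fold lower, and its other sequence, at 56.9 and 37.3, was below that level on both arrays. Rab27a, which docks lytic and neutrophil granules at the plasma membrane, was at 886 and 541 (-0.71), and its other sequence was 2-fold lower (-1.28). All sequences of Rab3d, Rab3c and Rab27a were lower.

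Most granulocyte and monocyte markers were lower too, with 16 of 23 below 0 and a median of -0.67. Another 7 were above 0, among them Csf1r (1.19), Itgam (0.77), Ly6c2 (0.62), Fcgr3 (0.55) and Ccr2 (0.25). The sequences of Csf1r, Itgam and Fcgr3 were on both sides of 0. The part of granulocyte RNA in the values of these granule Rabs was not tested. Of 7 mast cell and basophil markers, 4 were above 0 and 3 below, 0 differed 2-fold in either direction and the median was 0.18. Mcpt8 was at 402 and 210 (-0.94), and Cpa3 and Fcer1a lay below the random-probe level on both arrays. The part of such cells in the value of Rab37 was not tested. Rab8a, which carries vesicles to the plasma membrane and the cilium, was at 1440 and 1458 (0.02), but its other sequence differed by -1.03. Rab8b was at 375 and 326 (-0.20), and Rab26 (0.49) and Rab3a (0.48) were within 2-fold. Rab3b (75.9 and 78.0) was at about the random-probe level on both arrays. Rab10 (79.6 and 56.3) was below that level in the knockout and at least 1.05-fold lower. Of the remaining group, Rab23, a negative regulator of Hedgehog signalling, was at 355 and 270 (-0.39), while its 4 sequences ranged from -0.39 to 0.74, with control values of the 2 higher ones below the random-probe level. Rab28, a ciliary Rab, read 49.9 and 44.9, both below the random-probe level, as were Rab40b and Rab40c.

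Of the 9 Rab-named regulators 8 were above 0, and 0 differed 2-fold (beside 12.4% of all genes). The share below 0 was 11.1%, beside 48.3% of all genes. The median of the 9 was 0.25 (0.16 to 0.29 in the other ways of computing the values). Of the 8, Rab3gap2 (52.6 and 58.9) lay below the random-probe level on both arrays. Rab11fip4 (57.8 and 78.3) lay below it in the control and was at least 1.10-fold higher. Rab11fip2 differed by 0.13. The Rab11fip genes encode effectors that tie Rab11 to motors and tethers. Rab11fip1 read 1015 and 1100 (0.12), with its other sequence at -0.33. Rab11fip5 read 228 and 271 (0.25). Rab11fip3, the effector of the dividing cell's midbody, was at 150.2 and 286 (0.93), with all 3 sequences above 0, from 0.13 to 1.26, the last with a control value below the random-probe level. Rab3ip and Rab3il1, exchange factors of Rab8, were higher by 0.64 and 0.33, with both sequences of each above 0.

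Sequences of 1 gene gave the one check of a value that the arrays allow. Of the 65 members, 32 had several sequences and 33 had 1. In 19 of the 32 (59.4%) all sequences differed in the same direction, beside 39.0% of the 10215 genes with several sequences. These shares are not like for like, because agreement is rarer with more sequences, and all genes had more of them per gene. Sequences at the random-probe level were counted in both. The 47 sequences that were not the brightest of their gene had a median of -0.02, beside -0.01 for such sequences of all genes, and 4 of them (8.51%) were 2-fold or more lower, beside 7.33%. The share of lower values among these other sequences was thus near the background, unlike that among the brightest. Counting only sequences above the random-probe level on at least 1 array, 27 members had several, and in 16 of them all had the same direction. Of the 11 lower members, 3 had several such sequences that were all lower (Rab24, Rab3c and Rab3d) and 3 had them on both sides of 0 (Rab5a, Rab22a and Rab14). The higher ones of Rab5a and Rab22a lay below the random-probe level in the control and above it in the knockout. That of Rab14 (313 and 511) lay above this level on both arrays. Rab1a and Rab37 had 1 such sequence each, and Rab1b, Rab9 and Rab39b have 1 sequence on the array. All 3 higher members had 1 sequence.

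**Figure D3:**
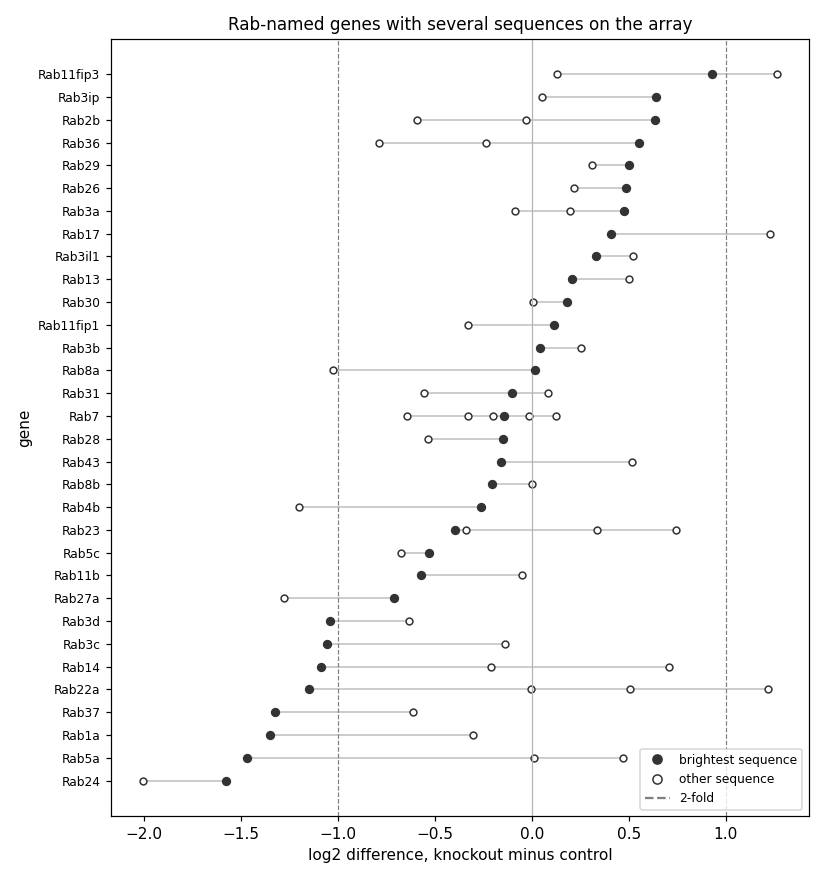
Log2 difference of every sequence of the 32 Rab-named genes with several sequences, with the brightest filled, the others open and dashed lines at 2-fold. Both sequences of Rab24 lie beyond 2-fold (-1.58 and -2.01), the 6 of Rab7 lie between -0.64 and 0.12, and those of Rab22a span from -1.15 to 1.22.

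Genes that switch Rabs on and off or act with them were read from 7 lists written from general knowledge, with 135 of 143 genes measured. Together 14 were 2-fold or more lower (10.4%, beside 6.42% of all genes) and 4 higher by 2-fold or more (2.96%, beside 5.94%), with a median of -0.11. The GTPase activating proteins, which switch Rabs off, were mostly lower, with 22 of 30 below 0 (73.3%, beside 48.3% of all genes). Their median was -0.45. By 2-fold or more, 0 were higher (beside 5.94% of all genes) and 5 lower (16.7%, beside 6.42%). Of these Rabgap1l was at 794 in control and 393 in knockout cells (-1.02), and all 3 of its sequences were lower. The other 4, Tbc1d22b, Tbc1d20, Tbc1d17 and Tbc1d7, were not in the detected range and are named after their values were seen. The knockout value of Tbc1d7 was below the random-probe level, which makes it at least 1.23-fold lower. Exchange factors, which switch Rabs on, had 18 of 31 above 0 and a median of 0.21. By 2-fold or more, 3 were lower (9.68%, beside 6.42% of all genes) and 0 higher (beside 5.94%). Dennd1a, an exchange factor of Rab35, was at 398 and 109 (-1.86), and both of its sequences were lower.

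Gdi2, which draws inactive Rabs off membranes and keeps them soluble, was at 1879 in control and 748 in knockout cells (-1.33). It was the 1 of 9 genes of Rab solubility and prenylation past 2-fold (11.1%, beside 12.4% of all genes). Of its group Rabggtb, a subunit of the enzyme that attaches the lipid tail, was at 476 and 743 (0.64), although its 4 sequences ranged from -0.70 to 0.64. Early endosome effectors had 10 of 15 below 0 and a median of -0.31. Vps45, of endosomal fusion, was at 448 and 203 (-1.14), and Eea1, the Rab5 tether, at 230 and 101 (-1.19), but the other sequence of Vps45 was below the random-probe level on both arrays and that of Eea1 (0.41) was below it in the control. Eea1 was not in the detected range and is named after its value was seen. Late endosome effectors had a median of 0.21 over 11 genes. Plin3, known as a binder of Rab9 and mannose-6-phosphate receptors, was at 886 and 379 (-1.22), and Rilp and Rilpl1, also named after their values were seen and not in the detected range, were at 1.03 and 1.18. Recycling and secretory effectors had a median of -0.14 over 28 genes. By 2-fold or more, 2 were higher (7.14%, beside 5.94% of all genes) and 1 lower (3.57%, beside 6.42%). Ehbp1, an effector of Rab8 and Rab10, was at 126 and 362 (1.52), with its 3 sequences from 0.21 to 1.52. The other higher gene, Rims2, named after its value was seen, had a control value below the random-probe level and was at least 1.09-fold higher. Golgi effectors had a median of 0.04 over 11 genes, and the golgin gene Golga4 was at 936 and 324 (-1.53), with its 3 sequences from -1.53 to 0.61.

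**Figure D4:**
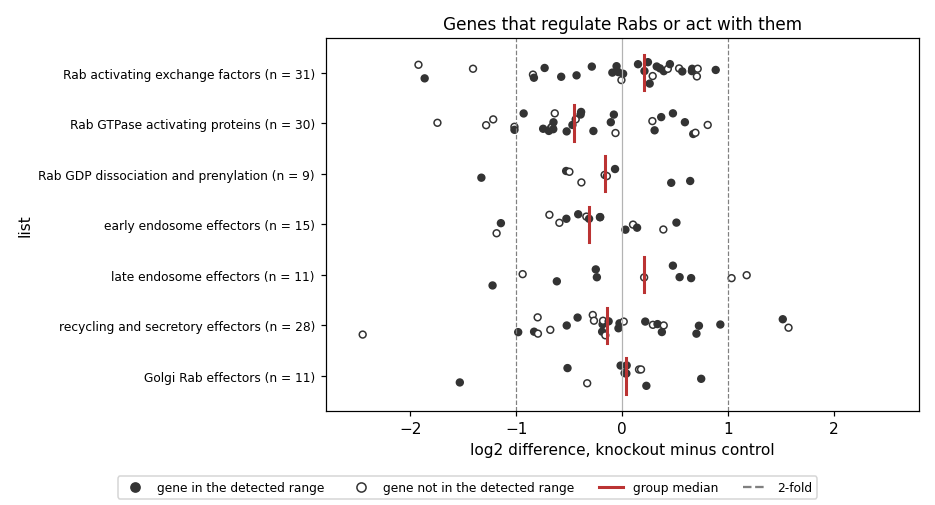
Log2 difference of the measured genes in 7 lists of Rab regulators and effectors, with filled points for genes in the detected range, red bars for list medians and dashed lines at 2-fold. The activating proteins are centred at -0.45 and the exchange factors at 0.21, and most genes of every list lie within 2-fold.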

How the data were processed

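RNA of sorted LT-HSC was labelled with Cy3 and hybridised to NimbleGen mouse arrays, 1 control and 1 knockout, per the labels. The deposited intensity values came from RMA, per the submitters' processing notes (its version: not given in the sources used here). They are linear and 1 per sequence, per the file headers, and 44155 of 44170 sequences had 3 probes, with positions on MM9. RMA makes the arrays alike in distribution, so a shift of most genes would not show. Log2 of the intensity was taken with Python 3.11.15 (pandas 2.3.3). Symbols were updated through RefSeq by gene identifier (39057 sequences matched), which renamed 3 members: Rab1 to Rab1a, Rab6 to Rab6a and Rab7l1 to Rab29. The authors' series table, with 34219 rows and 57 of the 65 members, was an alternative.

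With 1 array a group, genes were counted at 2-fold in place of a test. A value at or below the random-probe level (5000 probes) was replaced by that level and the fold given as a bound, while counts and medians kept it. Named were members past 2-fold, the 2 brightest of each role, the Rab5, Rab7 and Rab11 genes, and members whose sequences had opposite signs and lay 2-fold or more apart. Partners named by rule (up to 4 a list) were past 2-fold and in the detected range. Other members are named to account for the whole family. Members, roles and lists were chosen with earlier results of these data known. Some genes that act with Rabs are not reported here. The counting was tested on simulated data. The number of arrays limits the precision.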

Additional observations from a re-analysis of the deposited data

How the results depend on the processing

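No paired analysis was possible because there is 1 array for each genotype, and for the same reason no replicate could be left out. Against 11 members 2-fold or more lower and 3 higher by 2-fold or more, an offset of 50 before the log left 4 and 1, the mean of a gene's sequences left 4 lower, and the dimmest sequence gave 7 and 5. Of the 7 with the dimmest sequence 4 were also lower with the brightest. The detected range left 1 higher, and the 75th percentile of intensity left 3 and 0. At 1.5-fold the counts were 17 and 9, and at 3-fold 0 and 0. Over the 32 members with several sequences alone, a rule that all of them pass, chosen after seeing the data, gave 1 and 0. A stricter size or filter must count fewer genes, and an offset makes every difference smaller. For the offset, the mean, the dimmest sequence, the 75th percentile and the other fold sizes, the share over all genes was not computed. Whether the share of lower members exceeds that of all genes there was not tested. With values raised to the random-probe level, also chosen after seeing the data, 10 of the 11 stayed past 2-fold, without Rab5a. Quantile normalization left 10, without Rab39b, the series table left 10, without Rab5a, and loess and centring of the arrays left all 11. Adding genes by updated symbol, chosen after seeing the data, left 11 and 3.

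The median of the members, -0.06, was -0.18 for GTPases alone, -0.20 in the detected range, -0.57 above the 75th percentile and -0.15 as a mean. Rab22a reversed with the mean (0.14) and the dimmest (0.50) of its sequences, and Rab5a with the series table (0.47), which lacks its brightest sequence, and with its dimmest sequence (0.0092). The other members past 2-fold kept their direction in every setting that gave them a value, but this is little check of it. An offset does not change the sign of a sequence. For Rab1b, Rab9, Rab39b, Rab25, Rab42 and Rab20 the mean and the dimmest use the same 1 sequence. For Rab14 no setting used its sequence at 0.71 alone.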

Other observations

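Other small GTPases were read in the same way, in families chosen after seeing the data. Of 25 Arf and Arl genes, which act on vesicle coats and membranes, 6 were 2-fold or more lower (24%, beside 6.42% of all genes). In this family 1 was higher by 2-fold or more (4%, beside 5.94%), and the median was -0.13. Of 20 Ras family genes, 2 were 2-fold or more lower (10%, beside 6.42%) and 0 higher by 2-fold or more (beside 5.94%), with a median of -0.27. The shares past 2-fold in either direction were 28.0% for the first and 10% for the second, beside 25.0% for the Rab GTPases and 12.4% for all genes. These shares are not like for like in brightness. In the detected range were 8 of the 25 Arf and Arl genes and 5 of the 20 Ras family genes, beside 35 of the 56 Rab GTPases. Not above the random-probe level on either array were 4 Arf and Arl genes, 6 Ras family genes and 7 Rab GTPases.

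Rab7b, a late endosome GTPase that the files list under a clone name and that the choice by name therefore left out, was at 677 in control and 882 in knockout cells (0.38).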
